A study of Mus musculus with 6 samples.

Results

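The genes described here are the insulin receptor, the related IGF receptor and the proteins that act directly on them: 9 genes (Insr, Igf1r, Irs1, Irs2, Grb2, Shc1, Cbl, Ptpn1 and Inppl1) named by function, with rows found by symbol in a table of 31097 rows. A row was found for 8 of the 9. The level of Shc1 was not analysed here. The libraries were 3 of SWELL1 KO 3T3-F442A cells, in which CRISPR/Cas9 had been used against the SWELL1 gene, and 3 of WT 3T3-F442A cells, the parental line with intact SWELL1. 3T3-F442A is a mouse preadipocyte line that the labels call an adipocyte line. All 6 cultures were grown in RPMI with 10% FBS. The libraries are labelled biological replicates, without a word on how many KO clones they came from or whether the cells had been differentiated. The sample names of the KO libraries alone carry the mark D3, which is not explained, so whatever it stands for cannot be told apart from the genotype.

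Insulin or IGF binding switches on the tyrosine kinase of the receptor, which then phosphorylates the substrates IRS1 and IRS2, the main route to PI3 kinase, and SHC1, a route to Ras. GRB2 couples these phosphorylated proteins to the Ras activator SOS, and CBL serves both as an adaptor and as a ubiquitin ligase. The phosphatase PTP1B, encoded by Ptpn1, removes phosphate from the receptor, and the lipid phosphatase SHIP2, encoded by Inppl1, removes a phosphate from the lipid that PI3 kinase makes. SWELL1, encoded by Lrrc8a, forms part of the anion channel that opens on cell swelling and has been described in adipocytes as a partner of GRB2 that supports insulin signalling. The comparison asks whether the transcripts of this receptor-proximal machinery differ in cells targeted for SWELL1.

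Levels are given in FPKM, which divides fragments by transcript length and library size, so they can be compared between genes. No source names the unit, which was inferred from the tool listed (Cufflinks) and the look of the values. Depth, estimated from the lowest values, was 17.9 to 24.3 M fragments in KO libraries and 16.4 to 19.5 M in WT libraries. The row of the targeted gene also covers Nup188 and Phyhd1 and stood at 28.8, 28.0 and 27.3 FPKM in KO replicates 1, 2 and 3, against 32.5, 35.0 and 33.2 FPKM in WT replicates 1, 2 and 3, which does not check the knockout. Marker genes of mature fat cells summed to 106.5 to 152.1 FPKM in KO libraries and to 276.7 to 358.5 FPKM in WT libraries over the 8 of 9 with a row of their own, most of it Lpl and, in WT, Fabp4. Of the 5 tested 4 were lower and 0 higher in KO, with a median log2 fold change of -1.85. The fatty acid carrier gene Fabp4 averaged 3.44 ± 0.96 FPKM in KO and 159.0 ± 27.9 FPKM in WT (SD), 46.3-fold lower in KO, and Pparg, the master regulator of fat-cell formation, was 14.4-fold and Plin1, which coats lipid droplets, 10.0-fold lower (limma adjusted p = 1.09e-05, 0.00136 and 0.00263). Adipoq, a fat-cell hormone, was also lower, at 0.0443, 0 and 0 FPKM in KO and at 1.87, 1.55 and 1.26 FPKM in WT (limma adjusted p = 0.000108), and Lep was listed at 0 in all 6. The tested marker that did not pass was Lpl, at 123.4 ± 22.2 FPKM in KO and 151.5 ± 11.7 FPKM in WT (SD, limma adjusted p = 0.0927). Only rows averaging 0.5 FPKM or more were tested. Adipoq, Pparg and Plin1 averaged 0.0148, 0.127 and 0.101 FPKM in KO, so they were tested only through their WT levels. The filter thus allowed them no direction but lower, while Fabp4 and Lpl stood above it in both groups. Preadipocyte and fibroblast markers summed to 5224 to 5300 FPKM in KO and 5322 to 6103 FPKM in WT (8 of 9 with a row of their own), and of the 7 tested 3 were higher and 4 lower in KO. These marker counts stand against 65.2% of all tested rows that passed, with 28.5% higher and 36.7% lower in KO. Leukocyte markers (5 of 6 genes with a row) summed to 0.127 to 0.343 FPKM in KO and 1.30 to 1.64 FPKM in WT, with Csf1r listed at 0 throughout. Most of that sum was Lyz2, the 1 gene tested, at 0.171 ± 0.127 FPKM in KO and 1.51 ± 0.19 FPKM in WT (SD, limma adjusted p = 0.000458). Ptprc, untested, averaged 0.0149 FPKM in KO and was listed at 0 in WT. Endothelial markers (5 of 5) summed to 2.06 to 2.45 FPKM in KO and 0.456 to 0.659 FPKM in WT. Most of that was Vwf, the 1 gene tested, at 1.71 ± 0.02 FPKM in KO and 0.418 ± 0.091 FPKM in WT (SD, limma adjusted p = 0.000186). Epithelial markers (5 of 5, Epcam listed at 0 throughout) summed to 1.69 to 1.78 FPKM in KO and 4.26 to 4.50 FPKM in WT. Of these Krt7 was lower in KO, and Krt8 higher, at 1.32 ± 0.16 FPKM and listed at 0 in WT. Lyz2, Vwf, Krt7 and Krt8 also averaged under 0.5 FPKM in their lower group, so the filter fixed their direction too. Muscle markers (3 of 5, Myod1 and Myog listed at 0 throughout) summed to at most 0.0998 FPKM in KO and 0.077 FPKM in WT. The part of the lower fat-cell markers in the differences between groups was not tested, and fewer cells of a type and less RNA per cell cannot be told apart in such bulk samples.

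Of the 8 members with a row all passed the filter on low values, and 4 changed: Irs1 rose, and Ptpn1, Inppl1 and Igf1r fell (limma on log2(FPKM + 0.5), adjusted p under 0.05 over all 10515 tested rows). The transcript of the insulin receptor itself, of the substrate Irs2 and of the adaptors Grb2 and Cbl did not pass. The share of all tested rows that passed was 65.2%, with 28.5% higher and 36.7% lower in KO, so the count of changed members is no larger than the background. KO and WT libraries did not overlap for 5 of the 8 members, against 71.8% of all tested rows. The median log2 fold change was -0.12 over the members and -0.07 over all tested rows. Each log2 fold change is KO minus WT, taken on log2(FPKM + 0.5), which understates the change of low genes, and n is 3 libraries a group throughout.

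**Figure D1:**
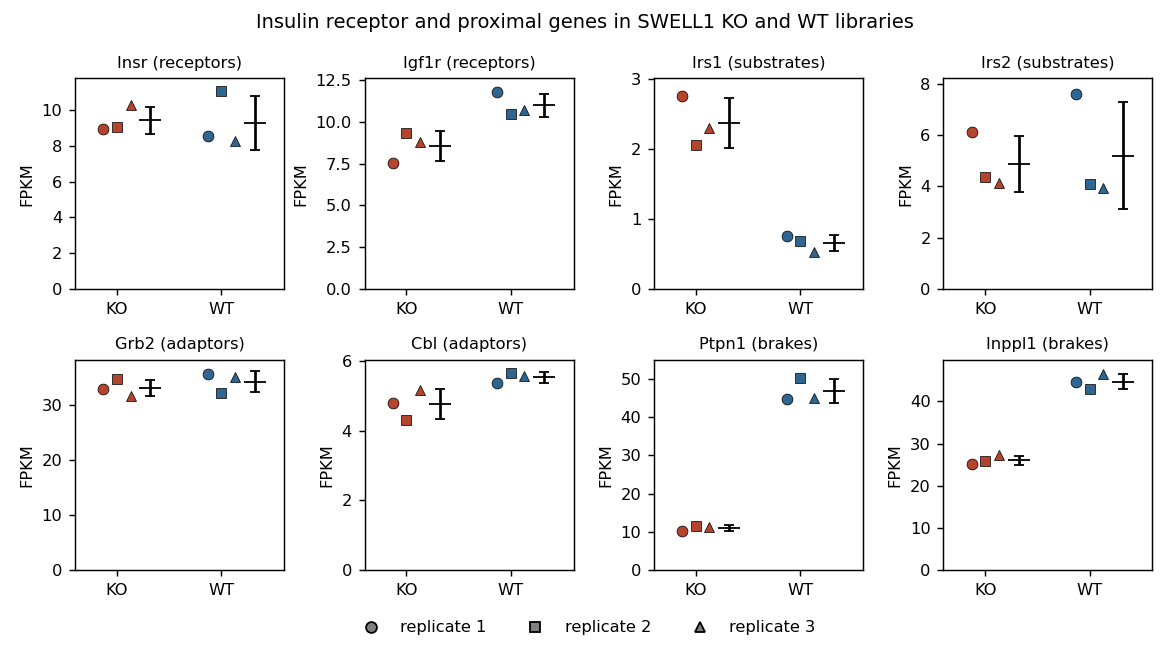
Level in FPKM (vertical axis, from 0) of each of the 8 members in the 3 KO and 3 WT libraries; marker shapes give the replicate number, and the bars beside them the mean and SD of each group. Ptpn1 and Inppl1 are lower and Irs1 higher in every KO library than in any WT library, while Insr, Irs2 and Grb2 overlap.

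The stretches just upstream of 4 transcription starts are shown for the members whose transcripts moved most, Irs1 upwards and Ptpn1 and Inppl1 downwards, and for Irs2, the second substrate, as the counterpart of Irs1. Each is the 250 bases before the RefSeq start on the gene's strand, 5′ to 3′, build GRCm38.p6. Irs1 is at chr1:82291440-82291689 (minus strand), Irs2 at chr8:11008930-11009179 (minus strand), Ptpn1 at chr2:167932077-167932326 (plus strand) and the first of the Inppl1 starts at chr7:101838227-101838476 (minus strand). Capitals mark GC boxes (GGGCGG on either strand), the site letters of Sp1-type factors, and E-boxes (CACGTG).
Irs1: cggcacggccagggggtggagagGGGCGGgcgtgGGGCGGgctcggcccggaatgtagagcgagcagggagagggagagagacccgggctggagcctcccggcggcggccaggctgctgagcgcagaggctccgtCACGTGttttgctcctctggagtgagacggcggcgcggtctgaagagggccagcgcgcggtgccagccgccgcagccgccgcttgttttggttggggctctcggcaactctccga
Irs2: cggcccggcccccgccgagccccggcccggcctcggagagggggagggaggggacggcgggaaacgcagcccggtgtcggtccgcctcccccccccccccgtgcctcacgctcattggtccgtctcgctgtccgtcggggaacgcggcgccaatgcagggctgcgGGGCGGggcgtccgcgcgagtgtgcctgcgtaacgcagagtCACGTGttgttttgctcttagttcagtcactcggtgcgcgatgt
Ptpn1: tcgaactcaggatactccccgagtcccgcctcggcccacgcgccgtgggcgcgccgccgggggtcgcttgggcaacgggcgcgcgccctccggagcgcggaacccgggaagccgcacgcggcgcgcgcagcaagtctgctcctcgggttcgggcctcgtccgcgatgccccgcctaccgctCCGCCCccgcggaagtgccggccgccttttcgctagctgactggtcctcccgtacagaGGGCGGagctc
Inppl1: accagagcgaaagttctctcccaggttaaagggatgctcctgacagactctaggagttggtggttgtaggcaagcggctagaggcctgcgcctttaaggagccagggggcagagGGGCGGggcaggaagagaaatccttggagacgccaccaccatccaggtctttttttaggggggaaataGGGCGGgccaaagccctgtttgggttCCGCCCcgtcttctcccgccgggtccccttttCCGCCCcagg
The 4 stretches are GC-rich, at 72.4% G or C for Irs1, 72.8% for Irs2, 75.2% for Ptpn1 and 60.4% for Inppl1, against a median of 52.4% over all 32851 RefSeq stretches of this length. GC boxes stood upstream of both the substrate gene that rose and the phosphatase genes that fell: 2 in Irs1, 1 in Irs2, 2 in Ptpn1 and 4 in Inppl1. RefSeq stretches were found for 8 of the 9 members. Insr had none, and Shc1, whose level was not analysed, was included. There were 11 stretches in all since some genes have more than 1 start. Of the 11, 8 held a GC box, against 32.7% of all stretches. The E-box was present in 2 of the 11, those of Irs1 and Irs2, against 6.02% of all stretches. The CRE half-site TGACG (either strand) was in 1, that of Irs1, where it overlaps the E-box by 2 letters, against 17.8% of all stretches. The forkhead site TGTTTAC (either strand), named for the FOXO factors that insulin restrains, was in 0 of the 11 and in 3.17% of all stretches. A match describes the letters only.

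Of the receptors, Igf1r fell and Insr did not pass. Insr, the insulin receptor itself, on chromosome 8 (3122061 to 3279617, minus strand, GRCm38), stood at 8.93, 9.04 and 10.3 FPKM in KO replicates 1, 2 and 3, against 8.52, 11.0 and 8.27 FPKM in WT replicates 1, 2 and 3. The groups overlapped, and the highest library was WT replicate 2. The means were 9.42 ± 0.76 FPKM in KO and 9.27 ± 1.53 FPKM in WT (SD), a log2 fold change of 0.03 (SE 0.12) with a 95% confidence interval of -0.27 to 0.33 (limma adjusted p = 0.841). The row is a sum over transcripts, so the receptor isoforms with and without the alternatively spliced exon were not told apart.

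Igf1r, the receptor for IGF1 and a close relative of Insr, lies on chromosome 7 (67952827 to 68233668, plus strand). It was at 7.53, 9.34 and 8.81 FPKM in KO replicates 1, 2 and 3, against 11.8, 10.5 and 10.7 FPKM in WT replicates 1, 2 and 3. Every KO library was below every WT library, and the fall was modest, 1.28-fold (log2 fold change -0.35, SE 0.09, limma adjusted p = 0.0176). The call was lost without WT replicate 1 (log2 fold change -0.30, limma adjusted p = 0.0572) and when the libraries were rescaled without the largest row (log2 fold change -0.23, limma adjusted p = 0.0532). That row, the numbered clone AC166252.2, took 16.7% to 23.7% of the FPKM sum in KO libraries and 0% to 2.1% in WT libraries, and the rescaling raised the median log2 fold change of all rows by 0.11.

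Within a library the 2 receptors were at similar levels. The ratio of Insr to Igf1r was 1.19, 0.969 and 1.17 in KO replicates 1, 2 and 3, against 0.723, 1.05 and 0.773 in WT replicates 1, 2 and 3. WT replicate 2 lay among the KO libraries, so the groups overlapped. The difference in the log2 ratio was 0.40 (exact two-sided permutation test, p = 0.2, where 3 against 3 libraries can give no less than 0.1).

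Of the substrates, Irs1 rose and Irs2 did not pass. Irs1, a principal docking protein of the insulin receptor in fat and muscle, lies on chromosome 1 (82233101 to 82291416, minus strand). It was at 2.75, 2.06 and 2.30 FPKM in KO replicates 1, 2 and 3, against 0.755, 0.687 and 0.528 FPKM in WT replicates 1, 2 and 3. The lowest KO library was well above the highest WT library. The means were 2.37 ± 0.35 FPKM in KO and 0.657 ± 0.117 FPKM in WT (SD), a 3.61-fold rise (log2 fold change 1.31, SE 0.14, limma adjusted p = 0.000352). Of all tested rows 5.53% had a larger increase. Low as these levels are, the long transcript gave them about 376 to 471 fragments a KO library and 94 to 114 a WT library, by the estimated depth and the longest annotated transcript.

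The 3′ end of Irs1 is overlapped on the opposite strand by exons of Gm9747, a predicted coding gene (chromosome 1, 82233112 to 82235933, plus strand). Gm9747 had a row of its own, at 4.32, 4.36 and 4.15 FPKM in KO replicates 1, 2 and 3, against 1.31, 1.41 and 1.29 FPKM in WT replicates 1, 2 and 3. It rose 3.20-fold (log2 fold change 1.38, SE 0.07, limma adjusted p = 2.09e-05), close to the size seen for Irs1. The sources used here do not say if strand was kept, so reads of the overlapping pair cannot be told apart.

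Irs2, the second widely expressed substrate, on chromosome 8 (10984681 to 11008458, minus strand), was at 6.14, 4.35 and 4.13 FPKM in KO replicates 1, 2 and 3, against 7.60, 4.08 and 3.93 FPKM in WT replicates 1, 2 and 3. The libraries numbered 1 were the highest of both groups, and the groups overlapped. The means were 4.87 ± 1.10 FPKM in KO and 5.20 ± 2.08 FPKM in WT (SD). The log2 fold change of -0.05 (limma adjusted p = 0.888) has a 95% confidence interval of -0.73 to 0.63. A change of up to about that size in either direction is therefore not excluded by these libraries. Exons of Irs2 overlap those of 9530052E02Rik on the opposite strand (chromosome 8, 11007850 to 11054541). As for Irs1, reads of the overlap cannot be told apart.

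The substrates were also compared with each other within each library. The ratio of Irs1 to Irs2 was 0.449, 0.473 and 0.557 in KO replicates 1, 2 and 3, against 0.0994, 0.168 and 0.134 in WT replicates 1, 2 and 3. The groups did not overlap, and Irs2 was the higher of the 2 in every library. The difference in the log2 ratio was 1.91 (exact two-sided permutation test, p = 0.1, the smallest that 3 against 3 libraries allow). Rows of the other IRS family members, Irs3 and Irs4, were listed at 0 in all 6 libraries.

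Grb2, an adaptor whose SH2 domain binds phosphotyrosine and whose SH3 domains bind SOS, lies on chromosome 11 (115644045 to 115708597, minus strand). It was at 32.9, 34.8 and 31.7 FPKM in KO replicates 1, 2 and 3, against 35.7, 32.2 and 35.1 FPKM in WT replicates 1, 2 and 3. The groups overlapped, and the spread within each was small. The means were 33.1 ± 1.53 FPKM in KO and 34.3 ± 1.88 FPKM in WT (SD), with a log2 fold change of -0.05 and a 95% confidence interval of -0.19 to 0.09 (limma adjusted p = 0.48). Of the members this interval was the tightest among those that did not pass, narrower than that of Insr, Irs2 or Cbl.

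Cbl, a ubiquitin ligase that is recruited to the activated receptor through the adaptor APS, lies on chromosome 9 (44142976 to 44234049, minus strand). It was at 4.78, 4.31 and 5.16 FPKM in KO replicates 1, 2 and 3, against 5.35, 5.64 and 5.56 FPKM in WT replicates 1, 2 and 3. The KO libraries were all below the WT libraries, by a small margin between the closest of them. The log2 fold change was -0.20 (SE 0.08, 95% confidence interval -0.39 to -0.01), and it missed the threshold after adjustment (limma adjusted p = 0.0583). Without KO replicate 3 it passed (log2 fold change -0.26, limma adjusted p = 0.0291), and rescaled without the largest row it stood at -0.09 (limma adjusted p = 0.413).

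The brakes showed the largest falls among the members. Ptpn1, on chromosome 2 (167932057 to 167979385, plus strand), was at 10.3, 11.7 and 11.3 FPKM in KO replicates 1, 2 and 3, against 44.8, 50.3 and 45.0 FPKM in WT replicates 1, 2 and 3. No KO library came near a WT library. The means were 11.1 ± 0.71 FPKM in KO and 46.7 ± 3.13 FPKM in WT (SD), a 4.21-fold fall (log2 fold change -2.03, SE 0.07, limma adjusted p = 7.34e-06). Of all tested rows 2.61% had a lower log2 fold change. Estimated fragments were 827 to 1219 a KO library and 3152 to 3909 a WT library.

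Inppl1, on chromosome 7 (101822632 to 101838229, minus strand), was at 25.1, 25.8 and 27.3 FPKM in KO replicates 1, 2 and 3, against 44.5, 42.8 and 46.3 FPKM in WT replicates 1, 2 and 3. The groups were far apart relative to the spread within them. The fall was 1.71-fold (log2 fold change -0.76, SE 0.05, limma adjusted p = 5.71e-05). Of all tested rows 15.9% had a lower log2 fold change. Its exons overlap those of Phox2a and of the antisense transcript Gm10602, both listed at 0 in every library.

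**Figure D2:**
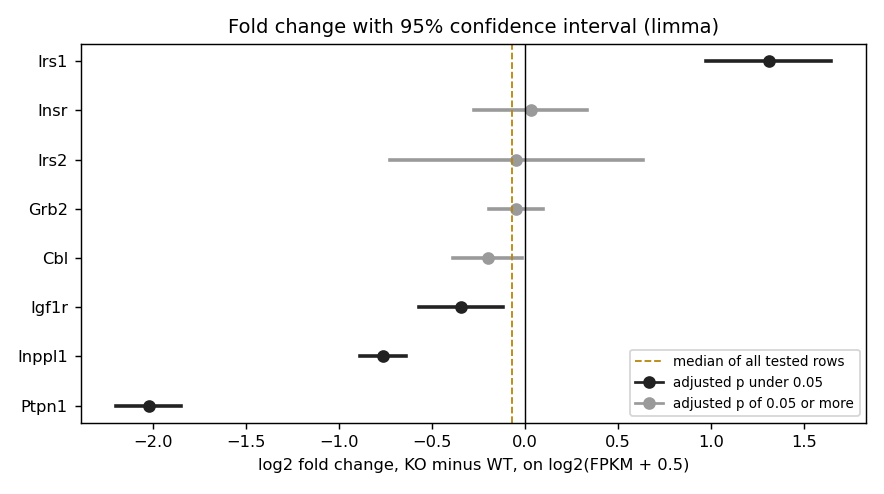
Log2 fold change, KO minus WT, on log2(FPKM + 0.5) (horizontal axis) with its 95% confidence interval for the 8 members; black marks passed the adjusted threshold, grey marks did not, and the dashed line is the median of all tested rows. Ptpn1 at -2.03 and Inppl1 at -0.76 lie left of the rest, Irs1 at 1.31 lies right, and the interval of Irs2 is the widest.

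The order of levels differed between the groups. In KO libraries Grb2 was highest (31.7 to 34.8 FPKM), followed by Inppl1, Ptpn1, Insr, Igf1r, Irs2, Cbl and Irs1. In WT libraries Ptpn1 (44.8 to 50.3 FPKM) and Inppl1 (42.8 to 46.3 FPKM) came first, followed by Grb2, Igf1r, Insr, Cbl, Irs2 and Irs1. Neighbours whose libraries overlapped, and so could not be ordered, were Insr with Igf1r and Irs2 with Cbl in both groups, and Ptpn1 with Inppl1 in WT. Irs1 was lowest in both groups, above 17.8% of tested rows by its KO mean and above 5.19% by its WT mean.

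Relative to Insr, Ptpn1 and Inppl1 were lower in every KO library than in any WT library. The ratio of Ptpn1 to Insr was 1.15, 1.29 and 1.10 in KO replicates 1, 2 and 3, against 5.25, 4.56 and 5.45 in WT replicates 1, 2 and 3. The ratio of Inppl1 to Insr was 2.81, 2.85 and 2.65 in KO replicates 1, 2 and 3, against 5.23, 3.88 and 5.60 in WT replicates 1, 2 and 3. The KO libraries kept a narrow range in both ratios, and neither overlapped with WT. The ratio of Grb2 to Insr was 3.54 ± 0.40 in KO and 3.78 ± 0.75 in WT (SD), with overlap. These 3 ratios were chosen after the levels were seen and carry no test.

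**Figure D3:**
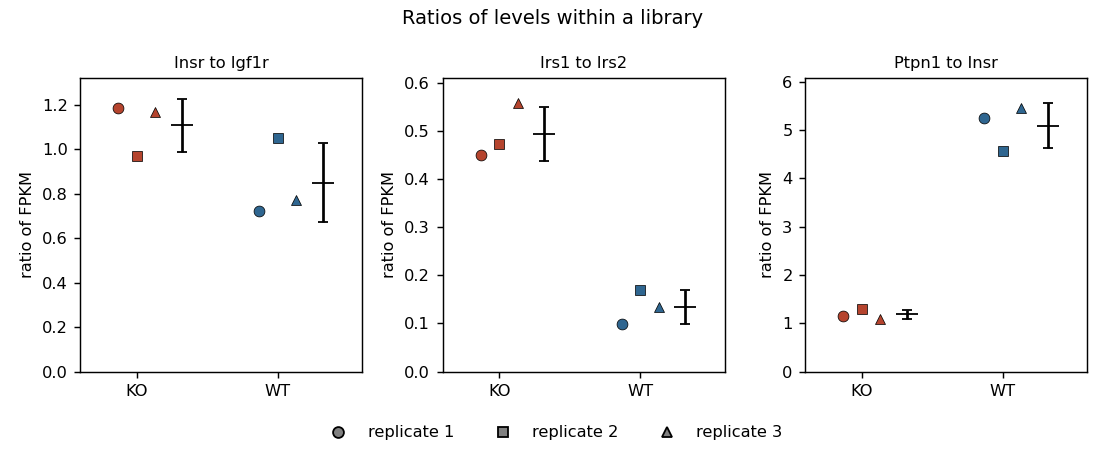
Ratio of FPKM within each library (vertical axis, from 0) for Insr to Igf1r, Irs1 to Irs2 and Ptpn1 to Insr in the 3 KO and 3 WT libraries, with mean and SD beside the points. The receptor ratio overlaps between groups, the Irs1 to Irs2 ratio averages 0.493 in KO and 0.134 in WT, and the Ptpn1 to Insr ratio averages 1.18 in KO and 5.09 in WT.

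The tested single-gene rows with profiles nearest to Insr and Ptpn1 were found by Euclidean distance on log2(FPKM + 0.5) over the 6 libraries, which share depth and group between genes. Nearest to Insr were the helicase gene Dhx29 (distance 0.188), 4930453N24Rik (0.248) and the selenophosphate synthetase gene Sephs1 (0.251), and all of them, like Insr, were highest of the WT libraries in replicate 2. Nearest to Ptpn1 were the kinase gene Pim1 (0.261), the Ras-related GTPase gene Rras2 (0.296) and Ccrn4l (0.307), whose product is the phosphatase nocturnin. Pim1 was at 10.6, 10.2 and 10.8 FPKM in KO and at 43.8, 44.9 and 45.6 FPKM in WT.

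Around the members, 66 further genes of proximal insulin signalling were read from the same fit, of which 61 had a row of their own and 47 were tested. Of the 47, 15 were higher and 24 lower in KO, with 8 not passing and a median log2 fold change of -0.17, against 28.5% higher, 36.7% lower and a median of -0.07 over all tested rows. Among those that passed, Ceacam1 and Sh2b3 averaged under 0.5 FPKM in WT, and Grb10 did so in KO. Each was tested only through its other group, so the filter on low values fixed its direction. An exact 0 in this table need not mean absence, since in 231 rows a library at 0 had a partner of its own group at 5 FPKM or more.

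Among receptor partners, proteins that process, carry or modulate the receptors, 6 of 7 tested genes were higher in KO and 0 lower, with a median log2 fold change of 0.69. Appl2, an adaptor of the APPL family, was at 14.5, 14.2 and 14.1 FPKM in KO, against 6.15, 6.61 and 6.19 FPKM in WT (log2 fold change 1.12, limma adjusted p = 1.34e-05). Ceacam1, a membrane glycoprotein that promotes uptake of the insulin receptor in liver, was at 1.05, 1.19 and 0.844 FPKM in KO, against 0.0804, 0.0164 and 0.0377 FPKM in WT (log2 fold change 1.48, limma adjusted p = 0.000304). Both were higher in every KO library, Ceacam1 at low levels. The insulin-degrading enzyme gene Ide, the group member that did not pass, was at 15.7 ± 1.32 FPKM in KO and 18.9 ± 2.73 FPKM in WT (SD, limma adjusted p = 0.0997). Furin, the protease that matures the receptor precursor, had the smallest increase of those that passed, at 34.9 ± 1.21 FPKM in KO and 29.8 ± 1.53 FPKM in WT (SD, limma adjusted p = 0.0107). The group's count was 6 higher and 0 lower under each scaling tried. With the filter at 2 FPKM, which removed Ceacam1, 5 of 6 were higher and 0 lower.

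Of 7 tested docking proteins other than Irs1 and Irs2, 1 was higher and 3 lower in KO, with a median log2 fold change of -0.05 that turned positive under median-ratio scaling (0.01) and rescaled without the largest row (0.06). The count was 2 higher and 2 lower under median-ratio scaling and under quantile normalization. It was 3 higher and 2 lower rescaled without the largest row. Sh2b2, which encodes the adaptor APS, was at 2.41, 2.01 and 2.15 FPKM in KO, against 4.22, 4.27 and 3.36 FPKM in WT (log2 fold change -0.72, limma adjusted p = 0.00199). Dok4, another receptor substrate, fell less, to 4.02 ± 0.25 FPKM in KO, against 5.24 ± 0.13 FPKM in WT (SD, limma adjusted p = 0.0039). Sh2b3, which encodes the adaptor LNK, stood at 12.3, 14.0 and 13.2 FPKM in KO and was listed at 0 in all 3 WT libraries, so no fold is given.

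The Ras arm was a list of adaptors, SOS genes, Ras genes and others around the route from GRB2 to the Ras proteins, not all on it. Of its 10 tested genes 4 were higher and 3 lower in KO, with a median log2 fold change of 0.15. Shc2, a relative of Shc1 best known from neurons, was at 4.95, 4.93 and 4.97 FPKM in KO, against 0.991, 1.16 and 0.959 FPKM in WT (log2 fold change 1.83, limma adjusted p = 1.34e-05). Nck2, an SH2 and SH3 adaptor, was at 22.6 ± 0.11 FPKM in KO and 14.4 ± 0.21 FPKM in WT (SD, limma adjusted p = 3.33e-05). The SOS genes, whose products GRB2 carries to the membrane, moved apart: Sos1 was at 6.38, 6.81 and 6.93 FPKM in KO, against 8.09, 10.9 and 8.72 FPKM in WT (log2 fold change -0.42, limma adjusted p = 0.0179, or 0.0584 without KO replicate 1). Sos2, named after its values were seen, was at 4.09 ± 0.12 FPKM in KO, against 2.93 ± 0.14 FPKM in WT (SD, log2 fold change 0.42, limma adjusted p = 0.00168). Under the scalings tried the count of higher genes was 5 or 6 and that of lower genes 3.

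In the CBL arm, in which CBL and flotillins at lipid rafts have been described as leading to the GTPase TC10, 7 of 7 tested genes were lower in KO and 0 higher, with a median log2 fold change of -0.40. Cblb, the close relative of Cbl, was at 6.12, 5.66 and 6.08 FPKM in KO, against 15.5, 20.2 and 15.1 FPKM in WT (log2 fold change -1.42, limma adjusted p = 0.000143). Every KO library of Cblb was far below every WT library. The count of lower genes was 6 under median-ratio scaling, 4 under quantile normalization and 5 rescaled without the largest row.

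Of 16 tested brakes other than Ptpn1 and Inppl1, 11 were lower and 4 higher in KO, with a median log2 fold change of -0.37. The count holds for the group as listed. Genes that modulate the receptors, such as Ceacam1 and Enpp1, were counted as receptor partners, and both were higher in KO. Enpp1 was at 4.68 ± 0.25 FPKM in KO and 3.16 ± 0.29 FPKM in WT (SD, limma adjusted p = 0.00237). Socs3, a cytokine-induced inhibitor that also binds the insulin receptor, was at 28.0, 25.6 and 25.9 FPKM in KO, against 154.1, 147.5 and 142.7 FPKM in WT (log2 fold change -2.46, limma adjusted p = 1.86e-06). Trib3, a stress-induced pseudokinase reported to hold back AKT, was at 24.1, 20.6 and 21.1 FPKM in KO, against 94.7, 109.6 and 96.6 FPKM in WT (log2 fold change -2.17, limma adjusted p = 9.87e-06). Both had lower log2 fold changes than Ptpn1, and no KO library overlapped with WT. In the other direction, Socs1 rose to 5.41 ± 0.20 FPKM in KO, against 2.83 ± 0.27 FPKM in WT (SD, limma adjusted p = 0.000262), and Pid1, a phosphotyrosine-binding protein, to 4.93 ± 0.83 FPKM in KO, against 2.80 ± 0.27 FPKM in WT (SD, limma adjusted p = 0.0047). Under the scalings tried 9 or 10 brakes were lower and 4 higher.

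**Figure D4:**
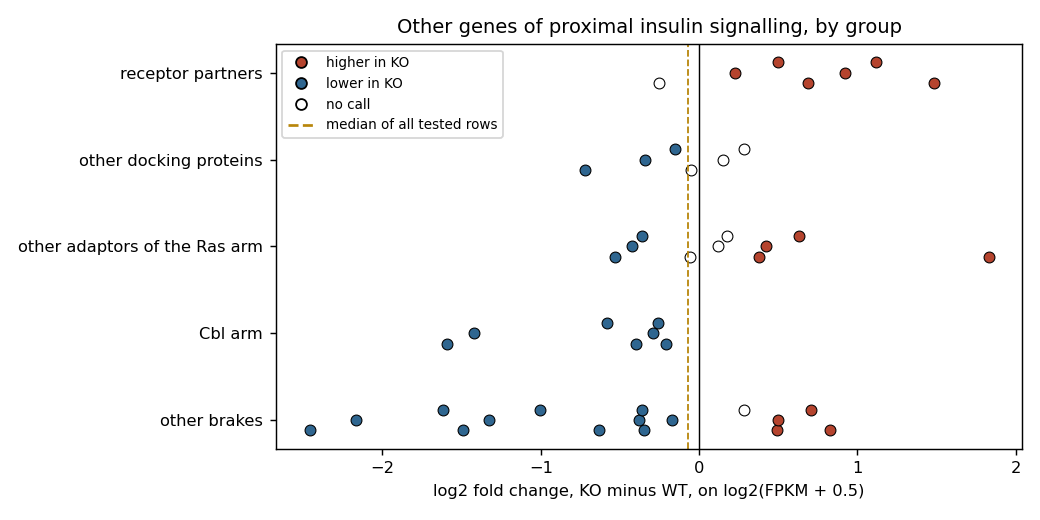
Log2 fold change, KO minus WT, on log2(FPKM + 0.5) (horizontal axis) of 46 tested genes around the members, by group; red points were higher and blue points lower in KO at an adjusted p under 0.05, open points did not pass, and Sh2b3, listed at 0 in WT, is left out. The receptor partners lie mostly to the right of the dashed median of all rows, the CBL arm wholly to its left, and the brakes reach furthest left with Socs3 at -2.46.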

How the data were processed

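RNA was sequenced from 3 SWELL1 KO and 3 WT libraries. The authors deposited 1 table with a value per row and library. Its unit is taken as FPKM by inference, since Cufflinks 2.02 and TopHat are named, with build GRCm38, per the submitters' processing notes. The sources used here give no settings. A row with several names was assigned to a gene if the remaining names were small RNAs, numbered clones or variant spellings.

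Rows averaging 0.5 FPKM or more were converted to log2(FPKM + 0.5) and tested using limma 3.58.1 (R 4.3.3; mean-variance trend, two-sided, Benjamini-Hochberg over all tested rows, threshold 0.05), after a check on simulated data. The check changed 200 of 10515 rows, far fewer than the 6860 that passed here, so it does not cover so wide a change. It recovered 63.8% of 1.5-fold and 83.6% of 2-fold changes, with 4.2% of calls false. The limma p-values reflect only how far the libraries of a group scatter, which may be technical. Ratios within a library were tested by exact permutation. Depth was taken from the lowest values of 1183 genes annotated with 1 transcript, 2500 bases or longer. Positions are from GENCODE M21, and upstream sequences are from RefSeq. Python 3.11.15 and pandas 2.3.3 were used. Shown around the members are the 2 largest increases and 2 largest decreases of each pathway group past the threshold, apart from 2 genes that are not reported here. Ide, Furin, Sos2, Enpp1 and Grb10 were named after their values were seen. Members and lists were chosen with earlier results of these data known.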

Additional observations from a re-analysis of the deposited data

How the results depend on the processing

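The falls of Ptpn1 and Inppl1 and the rise of Irs1 kept their direction and their call under each alternative that tested them: other pseudocounts, filters, scalings, a robust fit, the replicate block and each library left out. Log2 fold changes ranged from -2.06 to -1.89 for Ptpn1, from -0.80 to -0.60 for Inppl1 and from 1.02 to 1.71 for Irs1, which a filter at 2 FPKM removed. Of the members that did not pass, Grb2, Insr and Irs2 changed sign in some settings, and Cbl did not. Grb2 was at 0.0161 under median-ratio scaling, 0.10 under quantile normalization and 0.0701 rescaled without the largest row. Insr ranged from -0.0427 to 0.155 with 1 library left out. Irs2 was at 0.0125 under median-ratio scaling and 0.0625 rescaled without the largest row, and ranged from -0.21 to 0.235 with 1 library left out. The cause was not tested.

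Leaving out 1 library gave 6325 to 6528 called rows, against 6860 with all, 3 to 5 called members, against 4, and 36 to 38 other pathway genes, against 39. The log2 ratio difference then ranged from 0.29 to 0.56 for Insr to Igf1r and from 1.71 to 2.09 for Irs1 to Irs2. Same-numbered KO and WT libraries did not deviate together (r across rows 0.003, 0.012 and -0.093 for numbers 1, 2 and 3), so the numbers were not taken as pairs. With the replicate number as a block, 6534 rows, 3 members and 35 other pathway genes passed, Igf1r stood at an adjusted p of 0.0581 by limma, and the paired ratios gave an exact p of 0.5 for Insr to Igf1r and 0.25 for Irs1 to Irs2.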
